A study of Mus musculus with 12 samples.

Results

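The genes described here are Eif1b, its paralog Eif1 and 8 other genes of translation initiation (Eif1a, Eif1ad, Eif2s1, Eif2s2, Eif5, Eif5b, Eif4e and Eif4ebp1). They were taken from a given list and matched by symbol to Ensembl identifiers, 10 genes of the 49548 in the count files. The list was set with results of these data known, and it was selected on the scaled counts of Eif1b. These were lower in each library of MFN2 mutant mice than in each library of wild-type mice. The values of Eif1b between these genotypes are therefore given as a description, with no test. Its unscaled counts overlapped, at 1003 to 1661 in MFN2 mutant and 1455 to 1811 in wild-type libraries. All 10 genes passed the filter on low counts, a CPM above 1 in 3 or more libraries, which kept 15942 genes (CPM are counts scaled to the library's size).

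Translation of most messenger RNAs starts with a small ribosomal subunit that carries the initiator tRNA on eIF2 and scans from the cap towards the first suitable AUG. eIF1 and eIF1A hold this complex open for scanning and make it pass over poor start sites, eIF5 promotes GTP hydrolysis by eIF2 once an AUG is found, and eIF5B then joins the large subunit. Upstream of scanning, eIF4E binds the cap, and 4E-BP1, the product of Eif4ebp1, competes for eIF4E and is released when mTOR phosphorylates it. Eif1b encodes a close relative of eIF1, and eIF1 is known for controlling its own synthesis through a start site in a poor context.

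RNA of the lumbar spinal cord was sequenced from mice 30 days of age, 8 MFN2 and 4 WT, with 1 library per mouse and no treatment. The MFN2 animals, labelled CMT2A, were of the MitoCharc1 line, B6;D2-Tg(Eno2-MFN2*R94Q) with the line suffix L51Ugfm/J, a model of the inherited axonal neuropathy Charcot-Marie-Tooth type 2A. They carry human MFN2 with the R94Q change under the rat Eno2 promoter, which is active mainly in neurons, and they keep their mouse Mfn2. The WT animals are labelled C57BL/6, while the study describes littermates, so that the transgene and any difference in genetic background cannot be told apart. Sex is not in the labels, and a Y-linked transcript given below was counted in some libraries of both genotypes and not in the rest. Mouse Mfn2 was measured at 206 ± 12.8 CPM (SD, n = 8) in MFN2 and 213 ± 15.1 CPM (SD, n = 4) in WT, and such counts do not check the presence of the human transgene.

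The libraries are named by their numbers, 41 to 43 and 72 to 76 for MFN2 and 44 to 47 for WT. WT libraries are in the first run of numbers only, so that in the second run number and genotype cannot be told apart. Library 43 stood apart from the others. Its 9 forebrain excitatory neuron markers, led by Camk2a, summed to 4730 CPM, against 142 to 209 in the other MFN2 libraries and 111 to 145 in WT, and its 7 caudal Hox genes, led by Hoxa9, summed to 23.4 CPM against 150 to 177 and 128 to 167. Its motor neuron markers, 6 genes with Prph as the most abundant, summed to 35.5 CPM against 154 to 263 in the other MFN2 libraries and 178 to 370 in WT. Library 73 and library 43 were high in the 4 Schwann cell markers, led by Pmp22 (320 and 303 CPM, against 47.8 to 66.3 in the remaining MFN2 libraries and 56.1 to 89.5 in WT). The markers of neurons of all types (6 genes, led by Nefm) summed to 4200 CPM in library 43. The other MFN2 libraries were at 7470 to 10800 CPM and WT at 7500 to 10700 CPM. Single genes of this list went both ways. Syt1 (1160 CPM) and Rbfox3 (173 CPM) were highest in library 43 of all libraries, and the other markers were lowest there. Endothelial markers (4 genes, led by Flt1) summed to 85.6 to 134 CPM in MFN2 and 97.6 to 119 CPM in WT. None of the markers in these lists was at 0 in all libraries, and none passed the test between genotypes. Results are given with and without library 43 where this matters. Totals were 19359454 to 26738930 counts in MFN2 and 19453238 to 23564568 in WT.

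Eif1b (ENSMUSG00000006941) lies on mouse chromosome 9 at 120492232 to 120495330 of GRCm38, on the plus strand, and Eif1 (ENSMUSG00000035530) on chromosome 11 at 100319885 to 100322096, also on the plus strand. Their coding sequences are both 342 bases long and have 278 bases in common (81.3%). A stretch of both, from base 250 to base 309 of the coding sequence, is shown because the counts of the paralogs are compared below, and capitals mark the 17 bases that differ.
Eif1: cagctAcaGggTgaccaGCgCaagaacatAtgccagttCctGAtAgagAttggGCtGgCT
Eif1b: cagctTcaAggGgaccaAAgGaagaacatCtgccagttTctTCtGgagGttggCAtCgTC
The longest run of coding bases in common was 25, under the read length of 75. None of the 961 windows of 75 bases in the principal Eif1b transcript occurred in a transcript of another gene. For Eif1, 319 of 1248 windows (25.6%) were shared with 14 other annotated genes, of which 12 were in the count files. Emd shared 113 windows and was counted at 7.77 to 11.8 CPM, at most 9.83% of the Eif1 counts in a library. The other 11 held at most 12 counts in a library, among them Gm10157, with 127 windows, and the pseudogene Eif1-ps1. The study's methods name paired-end reads, and these windows leave out the second read of a pair. How shared reads were assigned is not given in the sources used here.

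The bases around the start codon are shown next because several members act on the choice of this codon. Each line gives 6 bases before the AUG, written as ATG in capitals, and 1 base after it, from the principal transcript of the GENCODE annotation.
Eif1: tatcgtATGt
Eif1b: tgtcgcATGt
Eif2s1: ttcagaATGc
Eif2s2: acagccATGt
Eif5: gccaaaATGt
Eif5b: caagcgATGg
Eif4e: tctaagATGg
A favourable context has an A or a G 3 bases before the AUG and a G directly after it. Eif1 and Eif1b had neither. Among the start codons of 20454 genes, 7.42% had neither, 84.5% had the A or G and 41.5% had both. The other members shown had the A or G, and Eif5b and Eif4e also had the G after the AUG.

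Eif1b was lower in MFN2 than in WT, while Eif1 differed by less than the spread of the libraries. Eif1b was counted at 79.1, 69.8, 75.6 and 75.9 CPM in WT libraries 44 to 47. In MFN2 it was counted at 63.4, 63.2 and 56.7 CPM in libraries 41 to 43 and at 55.8, 50.3, 54.2, 56.7 and 58.3 CPM in libraries 72 to 76. The highest MFN2 library (41) was thus below the lowest WT library (45), which is what the list was drawn on, and library 73 was the lowest of all. All MFN2 libraries were below all WT libraries for 170 of the 15942 genes tested (1.07%). The means were 57.3 ± 4.38 CPM (SD, n = 8) in MFN2 and 75.1 ± 3.84 CPM (SD, n = 4) in WT, a log2 fold change of -0.39 (SE 0.07), or a fold of 0.763. It was -0.39 without library 43 (a fit that called 0.12% of genes), -0.28 for libraries 41 to 43 and -0.45 for libraries 72 to 76, each against the same 4 WT libraries. In whole tissue, fewer cells that express a gene and less of its RNA per cell cannot be told apart.

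**Figure D1:**
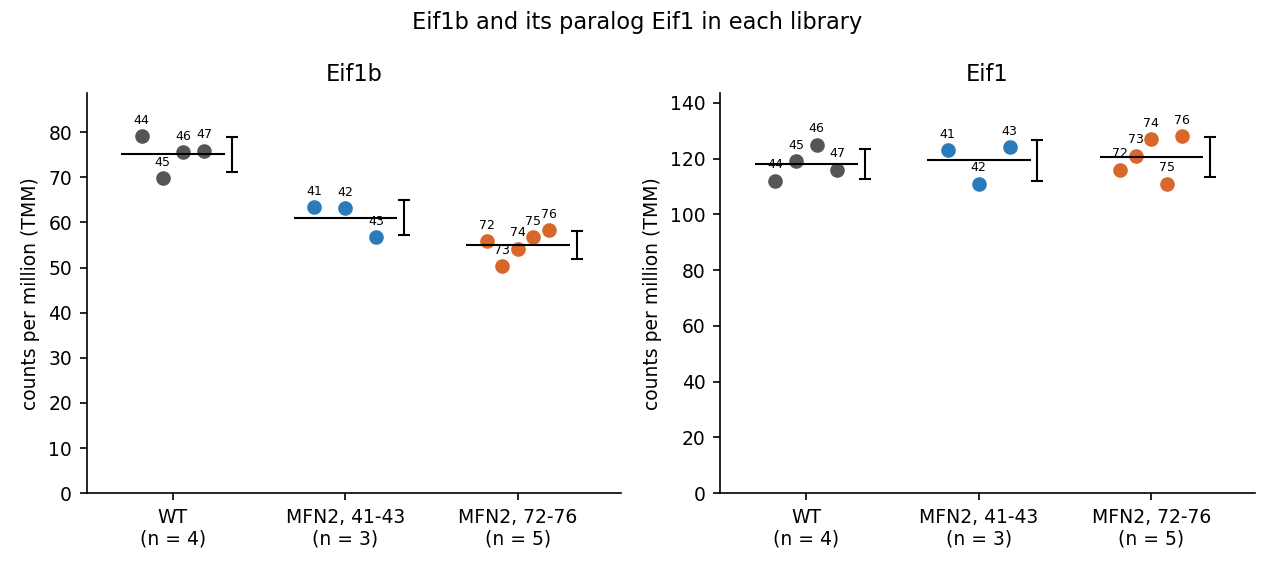
CPM (TMM-scaled) of Eif1b (left) and Eif1 (right) in each library, numbered beside its point, for WT (44 to 47) and the 2 runs of MFN2 libraries, with the mean as a line and the SD as a bar. The 8 MFN2 points of Eif1b lie between 50.3 and 63.4 CPM, below the WT points at 69.8 to 79.1 CPM, while the points of Eif1 overlap between the groups.

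Eif1 was counted at 112, 119, 125 and 116 CPM in WT and at 111 to 128 CPM in MFN2, with a median of 122 CPM. The groups overlapped over most of their range. The log2 fold change was 0.03 (SE 0.06, adjusted p = 0.838 by edgeR's quasi-likelihood test, Benjamini-Hochberg adjusted over all genes tested).

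The balance of the paralogs was also described within each library, where scaling between libraries does not enter. The count of Eif1b divided by that of Eif1 was 0.705, 0.585, 0.606 and 0.657 in WT. It was 0.516, 0.568 and 0.457 in MFN2 libraries 41 to 43 and 0.482, 0.416, 0.425, 0.511 and 0.456 in libraries 72 to 76. The highest MFN2 ratio, in library 42, stood just under the lowest WT ratio, in library 45, so that the groups did not overlap. The means were 0.479 ± 0.0508 (SD, n = 8) and 0.638 ± 0.0538 (SD, n = 4). This ratio holds the Eif1b counts on which the list was drawn and is no separate evidence.

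Levels between genes were compared as CPM per kilobase of the principal transcript. In WT, Eif1 had the highest level (89.2 ± 4.08, SD, n = 4), followed by Eif1b (72.6 ± 3.71), Eif5 (57.5 ± 1.81) and Eif2s2 (21.2 ± 0.33). Eif5b, Eif4e, Eif2s1, Eif1ad and Eif1a followed at 15.3 ± 0.418 down to 7.59 ± 0.73 CPM per kilobase, and Eif4ebp1 was far lower at 0.432 ± 0.145. Neighbours in this order did not overlap between their WT libraries, except Eif4e with Eif2s1 and Eif1ad with Eif1a. In MFN2, Eif1b stood at 55.4 ± 4.23 CPM per kilobase (SD, n = 8), next to Eif5 at 60.7 ± 7.01, and the libraries of the pair overlapped. The order of the paralogs depended on the length used. Divided by all annotated exons, Eif1b (66.8 ± 3.41) was above Eif1 (56.2 ± 2.57) in WT. In MFN2 its mean was below that of Eif1 (51 ± 3.9 against 57.3 ± 3.2), but their libraries overlapped (44.7 to 56.3 and 52.9 to 60.9). Levels per length hold only if reads cover whole transcripts, and the sources name both a 3′ mRNA and a total RNA protocol. By CPM alone, with no length, the WT means were 233 for Eif5, 119 for Eif5b, 118 for Eif1 and 75.1 for Eif1b.

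None of the other members passed the test between genotypes, and neither did any gene (0 of 15942 at a false discovery rate of 0.05 by edgeR's quasi-likelihood test, lowest adjusted p = 0.111, 0% called). At an unadjusted p under 0.05, 2386 genes (15%) were counted, and of the 9 members other than Eif1b only Eif5b was among them. The median log2 fold change was 0.08 over these 9 members and 0.0038 over all genes tested. DESeq2 called 200 genes. The study itself reports differentially expressed genes between these genotypes, by edgeR's generalized linear model at the same false discovery rate. Why its result differs from the 0 genes here was not tested.

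Eif5b, the GTPase that brings in the large ribosomal subunit, was counted at 123, 116, 121 and 116 CPM in WT and at 114 to 155 CPM in MFN2, with a median of 140 CPM. In MFN2, 7 of 8 libraries were above all WT libraries and library 41 was below them. The log2 fold change was 0.22 (SE 0.08, adjusted p = 0.278, edgeR with Benjamini-Hochberg adjustment), and 0.069 (SE 0.07, adjusted p = 0.637) with the run as a covariate. Part of the exons of Eif5b, 1643 bases, overlaps Rev1 on the opposite strand. Rev1 was counted at 29 to 36.6 CPM in MFN2 and 26.7 to 29.7 CPM in WT, at most 26.3% of Eif5b in a library. Its part in the counts of Eif5b was not tested, and the strand setting of the counting is not given in the sources used here.

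Eif2s2, the beta subunit of eIF2, was counted at 52.8, 54.9, 54 and 53.8 CPM in WT. In MFN2 it was counted at 55.3, 50.9 and 44.7 CPM in libraries 41 to 43 and at 71.8, 66.5, 76.7, 70.8 and 70.2 CPM in libraries 72 to 76. The second run was above each WT library, while the first run lay around or below WT, lowest in library 43. Over all 8 libraries the log2 fold change was 0.23 (SE 0.13, adjusted p = 0.394, edgeR with Benjamini-Hochberg adjustment). Of its 75-base windows 22.4% were shared with Gm9892, which was counted at 0.42 to 1.73 CPM, and how such reads were assigned is not stated.

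Eif5, which makes eIF2 hydrolyse its GTP, was counted at 226, 229, 243 and 234 CPM in WT. It was counted at 216, 236 and 192 CPM in libraries 41 to 43, and at 272, 259, 263, 263 and 265 CPM in libraries 72 to 76. The libraries of the second run were again above all WT and first-run libraries, and library 43 was the lowest. Eif2s1, the alpha subunit of eIF2 and the site of its stress-induced phosphorylation, was counted at 39.8, 40.8, 42.9 and 42.6 CPM in WT, 38.8, 38 and 40.8 CPM in the first run and 43 to 48.1 CPM in the second. Its second-run libraries were above all others, the lowest (74) by a narrow margin. The log2 fold changes over all 8 MFN2 libraries were 0.08 (SE 0.09) for Eif5 and 0.07 (SE 0.08) for Eif2s1, with adjusted p-values of 0.674 and 0.652 by edgeR.

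Eif1a, one of the genes for eIF1A, was counted at 21.1, 21.3, 24.7 and 19.8 CPM in WT and at 21 to 27.6 CPM in MFN2, with a median of 24 CPM. The groups overlapped, and the log2 fold change was 0.17 (SE 0.08, adjusted p = 0.357, edgeR). Eif1ax, another gene for eIF1A, was more abundant, at 132 ± 4.95 CPM (SD, n = 4) in WT and 135 ± 6.75 CPM (SD, n = 8) in MFN2. Its log2 fold change was 0.03 (SE 0.05, adjusted p = 0.788, edgeR) over all 8 MFN2 libraries. For libraries 72 to 76 against WT it was -0.00 (SE 0.05). Eif1ax was named after its values were seen. Eif1ad, which encodes a protein with an eIF1A-like domain, was at 21.9, 25.3, 23.3 and 23 CPM in WT and 21.5 to 24.7 CPM in MFN2, and the ranges overlapped. Its log2 fold change was -0.03 (SE 0.06, adjusted p = 0.8, edgeR), and 428 bases of its exons overlap Banf1 on the opposite strand (4.69 to 8.77 CPM).

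The cap-binding factor Eif4e was at 63.4, 64.2, 65.8 and 62.1 CPM in WT and 61.9 to 70.8 CPM in MFN2, with a log2 fold change of 0.05 (SE 0.05, adjusted p = 0.639, edgeR). Eif4ebp1, the repressor of eIF4E, was near the filter of 1 CPM at 0.917, 0.565, 1.24 and 0.73 CPM in WT and 0.619 to 1.27 CPM in 7 MFN2 libraries. Library 43 stood above these at 2.39 CPM. The groups overlapped for both genes, and for Eif4ebp1 the log2 fold change of 0.47 had an SE of 0.33 (adjusted p = 0.488, edgeR). Without library 43 it was 0.26 (SE 0.27, adjusted p = 0.606, edgeR).

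**Figure D2:**
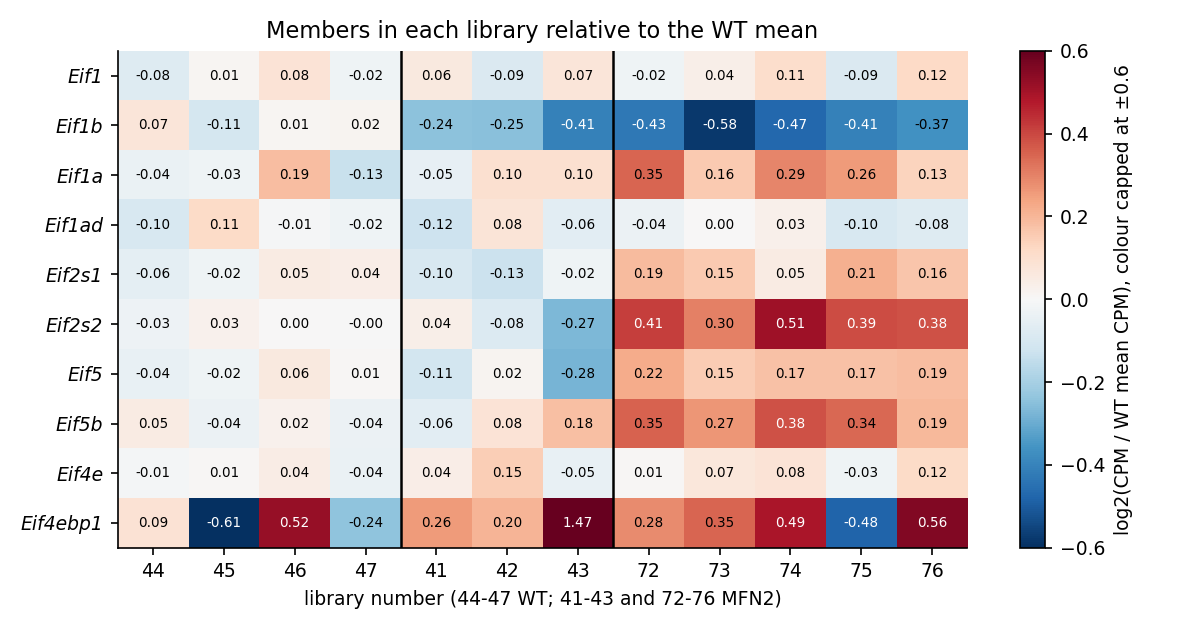
Each cell gives the log2 of a member's CPM in a library over its mean in WT, with libraries as columns (WT 44 to 47, MFN2 41 to 43, MFN2 72 to 76) and members as rows. The row of Eif1b is below 0 in all 8 MFN2 libraries, and the rows of Eif1a, Eif2s1, Eif2s2, Eif5 and Eif5b are above 0 in the 5 libraries of the second run.

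WT libraries are in the first run only, so that a difference between the runs could be estimated within MFN2 only. The MFN2 libraries of both runs were compared with each other in a fit of 3 groups. In this contrast the WT libraries serve only to estimate the spread. The p-values rest on the same values in which the second run was seen to stand apart above, and are no separate evidence of it. Of the 10 members, 4 were higher in libraries 72 to 76 and none was lower, where 8.4% of all genes tested were called in either direction, 3.79% higher and 4.61% lower. At an unadjusted p under 0.05, 5 members were higher and 1 was lower, where 28.7% of all genes tested were counted. Eif2s2 was higher by a log2 fold change of 0.50 (SE 0.07, adjusted p = 0.00451 by edgeR's quasi-likelihood test, Benjamini-Hochberg adjusted). Eif5 was higher by 0.30 (SE 0.07, adjusted p = 0.0242), Eif2s1 by 0.24 (SE 0.06, adjusted p = 0.0317) and Eif5b by 0.24 (SE 0.07, adjusted p = 0.0486). All 5 second-run libraries were above all 3 first-run libraries for these 4 genes and for Eif1a (5 of 10 members, where 18.2% of all genes tested had runs that did not overlap).

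Eif1b itself was lower in the second run by a log2 fold change of -0.15 (SE 0.07), which did not pass the test (adjusted p = 0.163, edgeR). Library 43 at 56.7 CPM lay among the second-run libraries, and libraries 41 and 42 above them. Eif1 (0.01, SE 0.07), Eif1ad (-0.00) and Eif4e (0.00) had values near 0 in this contrast, and these estimates changed sign with the filter, the scaling or the libraries used. The median over the 10 members was 0.10, against 0.0044 over all genes tested.

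These calls were not all stable. The call of Eif2s2 held under all 23 alternatives tried, with adjusted p-values from 3.58e-08 to 0.0337. Eif5 lost its call under 7 of the 23, Eif2s1 under 10 and Eif5b under 14, all with the direction kept. Other values that differed between libraries are given beside these calls. The Y-linked Eif2s3y, which encodes a gamma subunit of eIF2, was counted at 17.4 and 23.3 CPM in libraries 41 and 43, at 14.1 CPM in WT library 44 and at 0 counts in the other 9 libraries. No library of the second run held Eif2s3y, so that sex, as this gene marks it, and run cannot be fully told apart here. With detection of Eif2s3y as a covariate, an alternative added after seeing the data, Eif2s2 was the only member called. The log2 fold changes of Eif5, Eif2s1 and Eif5b were then 0.21, 0.23 and 0.26. In libraries 72 to 76 the markers of neurons of all types summed to 9630 to 10800 CPM. In libraries 41 to 43 they summed to 7470, 9040 and 4200 CPM, and in WT to 7500 to 10700 CPM. The sums of the second run thus lay above those of the first, but single markers went both ways. Log2 fold changes of second against first run were 1.10 (Nefm), 0.66 (Nefl), 0.17 (Tubb3), -0.00 (Snap25), -0.22 (Rbfox3) and -1.37 (Syt1). The 6 astrocyte markers, of which Slc1a2 was the most abundant, summed to 4960 to 6380 CPM in libraries 72 to 76, to 8460, 5980 and 5760 CPM in libraries 41 to 43 and to 6770 to 7750 CPM in WT, so that the runs overlapped and the second run lay below WT. The 6 microglia markers, led by Csf1r, summed to 80 to 103 CPM in libraries 72 to 76, to 168, 105 and 169 CPM in libraries 41 to 43 and to 107 to 144 CPM in WT. Against WT, 4 of the 6 astrocyte and 5 of the 6 microglia markers were lower in libraries 72 to 76 by edgeR's test, where 12.7% of all genes tested were lower. Their part in these results was not tested.

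Against the 4 WT libraries, the 5 second-run libraries differed at 3746 of 15743 genes (23.8%), 1746 higher (11.1%) and 2000 lower (12.7%). Of the members other than Eif1b, 5 were higher and none was lower by edgeR's test. Their log2 fold changes were 0.40 for Eif2s2 (adjusted p = 0.000394), 0.31 for Eif5b (0.00156), 0.18 for Eif5 (0.00939), 0.23 for Eif1a (0.0424) and 0.15 for Eif2s1 (0.0482). For the 3 first-run MFN2 libraries against the same WT libraries, 1 of 15200 genes was called (0.00658%) and no member. The values there were -0.08 for Eif2s2, 0.09 for Eif5b, -0.10 for Eif5, 0.06 for Eif1a and -0.07 for Eif2s1. Since the comparisons share their WT libraries and the second run has none of its own, run and genotype cannot be told apart in the first set of values.

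**Figure D3:**
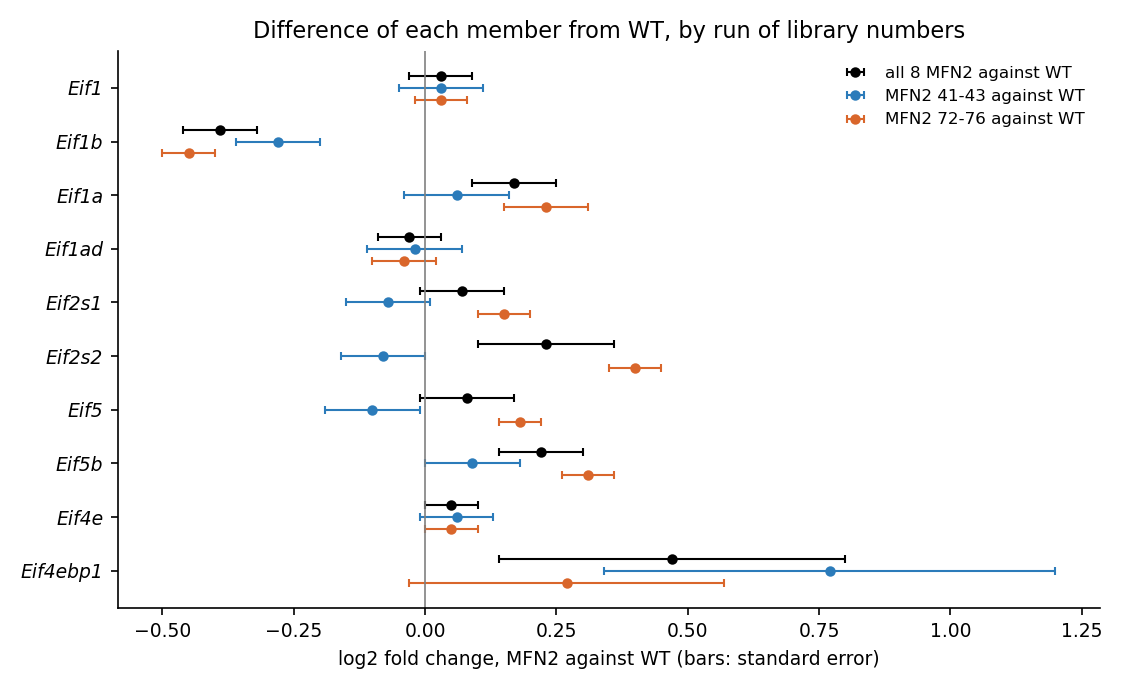
Log2 fold change of each member against the 4 WT libraries (bars, standard error) for all 8 MFN2 libraries (black), libraries 41 to 43 (blue) and libraries 72 to 76 (orange). Eif1b is negative in all 3 sets, at -0.39, -0.28 and -0.45, while Eif2s1, Eif2s2 and Eif5 are below 0 in the first run and above 0 in the second.

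The wider machinery was described with a list of 75 initiation genes, 10 members included, of which 74 were tested and Eif4ebp3 was not. Of the 64 genes tested beyond the members, none passed the test in either direction. At an unadjusted p under 0.05, 8 of these were higher and 4 lower in MFN2 (all genes tested, 7.4% higher and 7.57% lower). The median log2 fold change was -0.00 over these genes and 0.02 over all 74. The groups did not overlap for 3 genes of the list, against 2.04% of all genes tested. Eif1b, on which the list was drawn, and Eif3f were lower in MFN2 and Eif3e was higher (0.979% of all genes tested).

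Within eIF3, the large complex that binds the small subunit, 14 genes were tested, and 3 were higher and 2 lower at an unadjusted p under 0.05 (5 genes, against 15% of all genes tested). Eif3f was at 68 to 71.4 CPM in WT and 51.1 to 65.9 CPM in MFN2. Its log2 fold change was -0.25 (SE 0.07, adjusted p = 0.254, edgeR). Against WT it was -0.12 in libraries 41 to 43 and -0.33 in libraries 72 to 76. Eif3e went the other way, at 50.1 to 53.9 CPM in WT and 54.7 to 63.4 CPM in MFN2 (0.16, SE 0.05, adjusted p = 0.278, edgeR). Both are subunits of the same complex, and over all 8 MFN2 libraries neither difference passed the adjustment over all genes. The subunit paralog Eif3j2 had the highest log2 fold change of the group (0.94, SE 0.42) on low counts, 4.75 ± 1.49 CPM in MFN2 and 2.47 ± 1.77 CPM in WT.

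Among the 21 genes listed here under scanning and the ternary complex the median log2 fold change was 0.08. Eif5a2, listed with them although its protein is related to the elongation factor eIF5A, had the lowest value (-0.40, SE 0.17). It was counted at 108 to 137 CPM in WT and 87.3 to 114 CPM in 7 MFN2 libraries, with 47.7 CPM in library 43. Among the 11 genes of eIF2B, the exchange factor that reloads eIF2 with GTP, and of the eIF2 kinases and phosphatase, the median was -0.05. The kinase Eif2ak3, known as PERK, was at 47 ± 2.31 CPM in MFN2 and 51.4 ± 0.724 CPM in WT (-0.13, SE 0.05). Ppp1r15a, known as GADD34 and induced in the integrated stress response, was at 12.4 ± 2 and 10.1 ± 1.04 CPM (0.31, SE 0.13). Its libraries 41 to 43 were at 10.3 to 10.8 CPM, within the WT range of 9.04 to 11.4 CPM (log2 fold change 0.09), and libraries 72 to 76 were above both at 12 to 16.3 CPM (0.43). Over all 8 MFN2 libraries, none of Eif5a2, Eif2ak3 and Ppp1r15a passed the test, with adjusted p-values of 0.311, 0.295 and 0.301 by edgeR.

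Among the 23 tested genes of eIF4 and its regulators the median was 0.00, with the lowest value for Eif4ebp2 (-0.17, SE 0.11), a repressor of eIF4E that is abundant in brain. Its log2 fold change against WT was 0.03 in libraries 41 to 43 and -0.29 in libraries 72 to 76. The highest value beyond the members was that of Eif4enif1 (0.20, SE 0.09), the eIF4E transporter. Of the 5 genes of subunit joining and recycling, Gspt2 had the highest value (0.26, SE 0.09) and Eif6, which keeps the subunits apart, the lowest (-0.15, SE 0.11), with 0.02 in libraries 41 to 43 and -0.25 in libraries 72 to 76. Adjusted p-values of these 4 were between 0.278 and 0.498 by edgeR.

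**Figure D4:**
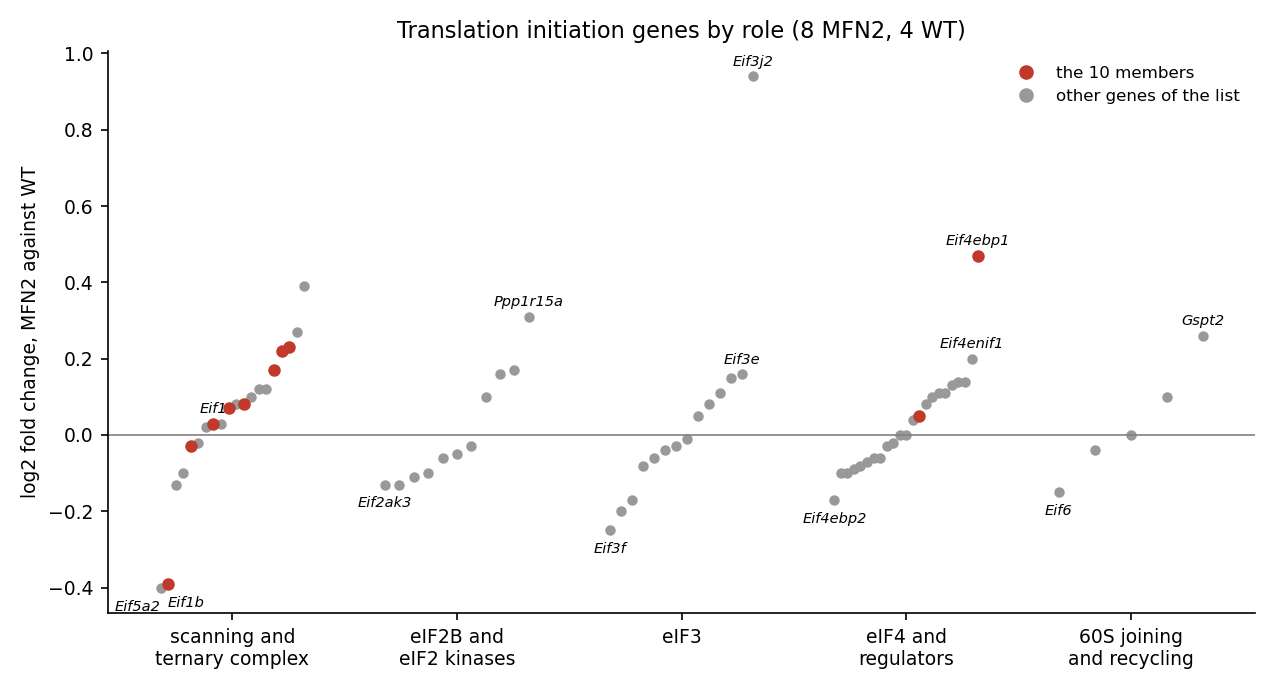
Log2 fold change of MFN2 against WT for the initiation genes tested, sorted within 5 roles, with the members in red and Eif2s3y left out because it was at 0 in 9 libraries. Eif1b and Eif5a2 lie lowest at -0.39 and -0.40. Eif1b, on which the list was drawn, is shown with no test, and none of the remaining genes passed the adjustment.

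Between the runs of MFN2 libraries, 8 of the 74 initiation genes were higher in the second run and none was lower (10.8%, against 8.4% of all genes tested). Beyond the members it was 4 of 64 (6.25%). The 4 beyond the members were Eif2b4 (log2 fold change 0.41, adjusted p = 0.00438), Eif2ak4 (0.40, 0.00513), Eif2b1 (0.27, 0.0375) and Eif3c (0.23, 0.0293), by edgeR's test with Benjamini-Hochberg adjustment. Eif2b1 and Eif2b4 encode subunits of eIF2B, and Eif2ak4 encodes GCN2, the eIF2 kinase that senses uncharged tRNA. These names were chosen after their values were seen.

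The genes whose log2 CPM followed Eif1b most closely over the 12 libraries were Fibp (Pearson r = 0.97), Cnih1, Gm38336, Phospho1 and Scrt2 (0.94 each). Fibp encodes a protein that binds acidic fibroblast growth factor, Cnih1 a cargo receptor of the early secretory pathway and Scrt2 a neuronal repressor of transcription. Fibp was at 16 ± 1.4 CPM in MFN2 and 20.3 ± 1.22 CPM in WT, and Cnih1 at 37.6 ± 3.41 and 45.6 ± 1.71 CPM. Within the 8 MFN2 libraries r was 0.94 for Fibp, 0.86 for Cnih1, 0.91 for Gm38336, 0.83 for Phospho1 and 0.72 for Scrt2. Of the members, Eif5b had the most negative value (-0.80), followed by Eif1a (-0.66) and Eif2s2 (-0.57), and Eif1 was at -0.27. Leaving out library 43 moved Eif2s2 to -0.81 and Eif5 from -0.37 to -0.72. These correlations are a description over libraries that share genotype, run of numbers and scaling.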

How the data were processed

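Per the labels and the study's methods, reads were trimmed and mapped with STAR to GRCm38, and the authors deposited integer counts for each Ensembl gene and library. The study's methods name paired-end reads and a stranded library kit. How reads were counted, and whether by strand, is not given in the sources used here, which name both a 3′ mRNA and a total RNA protocol. Genes above 1 CPM in 3 or more libraries entered TMM scaling and the test of edgeR 4.0.16 under R 4.3.3 (quasi-likelihood F test, legacy form, robust), with Benjamini-Hochberg adjustment at a false discovery rate of 0.05. The test was checked on simulated counts, and no result of that check is reported here. CPM are TMM-scaled, and standard errors were derived from the F statistic. Nothing beyond 1 library per mouse states how the replicates were collected, so p-values measure the spread between these libraries. Each pair of libraries within a genotype differed by more than sampling noise. Sequences and overlaps were read from GENCODE M21 on GRCm38.

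Members, gene lists, markers and alternatives were chosen with earlier results of these data known. Beyond the members, the text names initiation genes past the threshold or with no overlap between genotypes, the lowest and highest log2 fold change of each role, the 5 genes most like Eif1b, the most abundant gene of marker lists, and Mfn2. 1 further marker list is not reported here. Alternatives comprised changes of filter, scaling and test (DESeq2 1.42.0 and limma 3.58.1), either run of libraries alone with WT, a run term in the model, and leaving out single libraries. Added after seeing the data were the fits without libraries 43 and 73 and with Eif2s3y detection as a covariate, and levels per length of all exons.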

Additional observations from a re-analysis of the deposited data

Results flagged for a closer look

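A library whose gap to the nearest other library of its genotype was large for the range of that genotype (Dixon's test) was found in 8 of 64 groups of values examined, where chance gives about 1 in 20, or 3.2, and 5 of the 8 were library 43. In that library, Eif4ebp1 was high at 2.39 CPM (gap over range 0.631) and Eif4enif1 at 54.1 CPM (0.531), and Eif5a2 was low at 47.7 CPM (0.594). Its forebrain markers summed to 4730 CPM (0.985) and its caudal Hox genes to 23.4 CPM (0.819). In WT library 44, Eif2s3y was counted at 14.1 CPM against 0 in the other WT libraries (1) and Gspt2 at 26.7 CPM against 21.8 to 21.9 (0.981). In MFN2 library 41, the astrocyte markers summed to 8460 CPM (0.595).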

How the results depend on the processing

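The log2 fold change of Eif1b between MFN2 and WT, whose sign the choice of the list fixes, was -0.28 for libraries 41 to 43 and -0.42 to -0.36 with a library left out. The number of genes called rose from 0 to 200 by DESeq2 (1 member and 1 initiation gene), 1 for libraries 41 to 43, 3746 for libraries 72 to 76 (6 members, 5 of them higher, and 25 initiation genes) and 4 without libraries 43 and 73. With a library left out it was 0 to 19 (0 to 1 members, 0 to 1 initiation genes), at 19 without library 43 and 7 without library 41. The counts of members and initiation genes include Eif1b, on which the list was selected, and its calls are no test. Eif2s1, Eif2s2 and Eif5 turned negative for libraries 41 to 43 against WT (-0.067, -0.085 and -0.10) and with the run as a covariate (-0.084, -0.099 and -0.12). Eif1ad was 0.017 by library size only and -0.065 to 0.0065 with a library left out.

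Between the runs of MFN2 libraries, the 1339 genes, 4 members and 8 initiation genes called became 815, 1 and 3 with no filter and 269, 1 and 3 with Eif2s3y detection as a covariate. DESeq2 gave 2536 genes and 18 initiation genes. With a library left out they were 501 (without library 74) to 2217 (without library 43), 1 to 4 and 3 to 10. Members near 0 changed sign. Eif1 was -0.0081 with no filter, -0.0038 with filterByExpr and -0.041 to 0.043 with a library left out. Eif4e was -0.022 and -0.016 with these filters, -0.0092 with DESeq2 size factors, -0.011 by DESeq2, -0.046 without libraries 43 and 73, -0.05 with the Eif2s3y covariate and -0.043 to 0.053 with a library left out. Eif1ad was 0.0094 with CPM above 1 in all libraries, 0.031 with upper-quartile scaling, 0.049 by library size only and -0.078 to 0.058 with a library left out. Eif4ebp1 was 0.031 without libraries 43 and 73 and -0.71 to 0.049 with a library left out. The cause of these changes was not tested.

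No paired analysis was made because nothing in the sources used here links single MFN2 and WT mice, for example by litter. WT is represented by 4 libraries of 1 run, and values of genes near 1 CPM, such as Eif4ebp1, rest on few counts.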

Other observations

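Genes near Eif1b on chromosome 9 were also examined. Within 1 Mb of it 19 other genes were tested, none passed the false discovery rate of 0.05 by edgeR and 4 had an unadjusted p under 0.05, against 15% of all genes tested. Their median log2 fold change between MFN2 and WT was -0.03, from -0.50 for Entpd3, an ectonucleotidase, to 1.24 for Gm38642. Counts of Gm38642 were low, at 0.222 to 0.835 CPM in WT and 0.235 to 0.687 CPM in libraries 41 to 43. In libraries 72 to 76 it was at 1.01 to 1.85 CPM. Without library 43, where Entpd3 was at 7.27 CPM against 23.1 to 37.7 CPM in the other MFN2 libraries, Entpd3 was at -0.36 and Ulk4 was the lowest at -0.50. The ribosomal protein gene Rpl14 was the 1 neighbour whose groups did not overlap, at 85.8 to 99.5 CPM in MFN2 and 101 to 104 CPM in WT, with a log2 fold change of -0.09, where 2.04% of all genes tested did not overlap. These 4 genes were named after their values were seen. An antisense gene that shares 143 exon bases with Eif1b, D830035M03Rik, was counted at 0.241 to 0.938 CPM, at most 1.65% of Eif1b in a library.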
